A study of Mus musculus with 84 samples.

Results

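Imprinted genes are transcribed mainly from the copy inherited from one parent. A list of 34 of them was followed in the central amygdala (CeA) of 84 outbred mice given free choice between water and ethanol. Members were chosen by gene symbol, and 33 of the 34 symbols had a row among the 43629 genes of the count table. Peg13 was not analysed here. Of the 33, 32 passed the low-count filter and were tested together with all 16320 genes that passed, and H19 did not pass. Snrpn had 2 tested rows, so 33 rows entered each comparison. A second Rian row, on a patch scaffold, held 0 counts in all 84 libraries.

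The animals were 43 females and 41 males, with a median age of 15 weeks at the start of testing, drawn from a stock of families with at most 3 animals per family. All had water and 10% ethanol for 13 weeks after a few days on 5% ethanol, and no ethanol-naive group was sequenced here. Preference, the share of all fluid taken as ethanol solution, ranged from 0.0435 to 0.759 in females (mean over weeks, median 0.229) and from 0.0262 to 0.713 in males (median 0.153). The CeA was cut from frozen sections by laser and poly(A) RNA was sequenced in stranded libraries, 1 per animal. The labels do not say which animals share a family, so each animal was treated as independent.

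Imprinting is set in the germ line, where DNA methylation marks the control region of a gene cluster in eggs or sperm, and the mark is kept after fertilisation. Paternally expressed genes such as Igf2, Dlk1, Peg3 and Mest often promote growth, whereas maternally expressed genes such as Cdkn1c, Grb10 (in most tissues) and Igf2r often restrain it. In the brain many members are neuronal and are known for roles in feeding, maternal care and the hypothalamus, and loss of the paternal Ndn, Magel2 and Snrpn region causes Prader-Willi syndrome in humans. The expressed parental copy was not measured here, since the counts do not separate alleles.

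Library totals ran from 24118965 to 42036566 counts, with a median of 31573088.5. All 12 markers listed for CeA neurons were tested, and their summed level was 1177 to 4301 CPM (counts scaled to the library total). Markers of neighbouring tissue were present to very different extents. The summed level of 14 choroid plexus markers was 111 to 29501 CPM, with a median of 347. Enpp2 had the highest median count of the 14, at 7591, beside 1837.5 for Ttr. Ttr alone ran from 0.0988 to 23630 CPM, so the lowest sums do not reflect all 14 markers alike. The summed level of the markers listed for hypothalamic and medial amygdala neurons was 44.3 to 2036 CPM (median 103). That of cortical and basolateral excitatory neurons was 104 to 3789 CPM (median 2314). Those levels moved with several members, as given below. In bulk tissue, fewer cells of a type and less RNA per cell cannot be told apart.

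Sequences of 4 promoter windows and 4 microRNAs are shown because the genes they belong to formed the correlated groups described below. Promoter windows come from RefSeq (GRCm38.p6), which had entries for 27 of the 34 members, and cover bases before the start of the transcript. Peg3 on the minus strand and Usp29 on the plus strand start head to head on chromosome 7, and the 163 bases between their starts (chr7:6730420-6730582, plus strand) hold 5 CpG sites, in capitals.
Peg3 and Usp29: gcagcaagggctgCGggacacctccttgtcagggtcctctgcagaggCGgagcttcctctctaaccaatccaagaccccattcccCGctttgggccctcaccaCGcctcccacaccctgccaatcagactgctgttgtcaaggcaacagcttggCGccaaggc
In the other windows, of 250 bases, capitals mark the hexamer TGCCGC or its reverse complement. This is the core of the site bound, when methylated, by ZFP57, a zinc-finger protein that keeps imprints after fertilisation. Either strand was searched. It was present in 3 of the 27 windows (Meg3, Nap1l5 and Plagl1) and in 8.68% of all 32851 windows in the table. The median CpG count was 10 in the 27 windows and 6 in all.
Meg3 (chr12:109540746-109540995, plus strand): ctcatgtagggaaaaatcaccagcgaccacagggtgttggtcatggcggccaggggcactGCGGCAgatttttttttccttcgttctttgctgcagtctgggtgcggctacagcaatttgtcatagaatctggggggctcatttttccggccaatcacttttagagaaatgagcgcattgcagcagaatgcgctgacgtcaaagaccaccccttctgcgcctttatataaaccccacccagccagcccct
Nap1l5 (chr6:58907127-58907376, minus strand): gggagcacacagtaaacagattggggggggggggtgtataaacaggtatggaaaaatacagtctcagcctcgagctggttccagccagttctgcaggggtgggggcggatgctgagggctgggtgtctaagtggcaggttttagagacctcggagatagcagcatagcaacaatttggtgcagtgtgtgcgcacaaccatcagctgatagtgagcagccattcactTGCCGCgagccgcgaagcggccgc
Ndn (chr7:62348027-62348276, plus strand): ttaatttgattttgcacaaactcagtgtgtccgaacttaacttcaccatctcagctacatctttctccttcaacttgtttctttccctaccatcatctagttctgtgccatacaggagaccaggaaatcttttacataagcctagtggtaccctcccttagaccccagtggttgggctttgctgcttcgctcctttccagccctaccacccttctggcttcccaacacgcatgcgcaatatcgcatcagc
Mirg lies at chr12:109729764-109749460, plus strand, and spans 26 mature microRNAs from 14 genes in RefSeq. Their 25 seeds (bases 2 to 8, in capitals) were all different except for 1 shared by miR-453 and miR-496a-5p. These microRNAs are too short for a poly(A) library, so the data bear on the Mirg transcript and not on them.
miR-134-5p: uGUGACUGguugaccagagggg
miR-382-5p: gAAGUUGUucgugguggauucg
miR-453: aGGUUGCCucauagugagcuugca
miR-496a-5p: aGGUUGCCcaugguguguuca

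Levels were compared between genes as CPM per kilobase of exon. The highest members were neuronal and paternally expressed. Ndn, a MAGE-family protein of postmitotic neurons, ran from 192.9 to 630 with a median of 321. Nnat, a small membrane protein of the endoplasmic reticulum, had a median of 313 (108 to 601). Nap1l5, a nucleosome assembly protein-like gene without introns, had a median of 215.5 (108 to 549), and the main Snrpn row, a core protein of the splicing machinery, 185.5 (139 to 259). Gnas, the stimulatory G protein alpha subunit, followed at 163 (112 to 211.4), although the exon length in the count table for Gnas exceeds the union of its listed exons. Impact, a regulator of translation, followed at 120 (78.2 to 206.8). Of the exon bases of the main Snrpn row, 27.3% are shared on the same strand with the second Snrpn row and Snurf. Of the 33 tested rows, 23 lay above the median of all tested genes, 4.99.

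Among the maternally expressed noncoding RNAs of chromosome 12, Meg3 had a median of 61.9 CPM per kilobase (21.2 to 125), Rian, a host of small nucleolar RNAs, 29.3 (19.7 to 39.2) and Mirg 2.85 (1.18 to 5.54). Their paternally expressed neighbour Dlk1, a Notch-like surface protein that holds back differentiation, had a median of 7.14 and spanned 0.653 to 33.6. In the Peg3 domain, the zinc-finger gene Peg3 had a median of 28.96 and Usp29 7.15. In the Peg10 domain, the retrotransposon-derived Peg10 had a median of 14.4, Sgce (epsilon-sarcoglycan) 9.11, Calcr (the calcitonin receptor) 1.06 and Asb4 0.341.

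Of the growth regulators, Igf2 had a median of 13.5 CPM per kilobase, Grb10, an adaptor that dampens insulin and growth factor receptors, 10.7, and Mest 9.76. Cdkn1c, an inhibitor of cyclin-dependent kinases, had a median of 6.54, the zinc-finger factor Plagl1 5.30 and Igf2r, which clears IGF2, 4.95. Medians of the other coding members were 56.9 for Blcap, 38.9 for Rasgrf1, 17.2 for Inpp5f, 16.3 for Trappc9, 8.97 for the ubiquitin ligase Ube3a, 4.48 for Zdbf2, 2.74 for Magel2, 1.24 for the second Snrpn row and 0.263 for Mkrn3. Of the long silencing RNAs, Airn had a median of 0.267 and Kcnq1ot1 0.0646, the lowest of the tested rows per kilobase. The Kcnq1ot1 value is divided by an annotated exon length of 84395 bases. Its median of 5.45 CPM was above those of Calcr (4.15), Asb4 (1.34), Airn (0.957) and Mkrn3 (0.669). H19 reached at most 32 counts, with a median of 4 and 0 counts in 13 of 84 libraries.

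**Figure D1:**
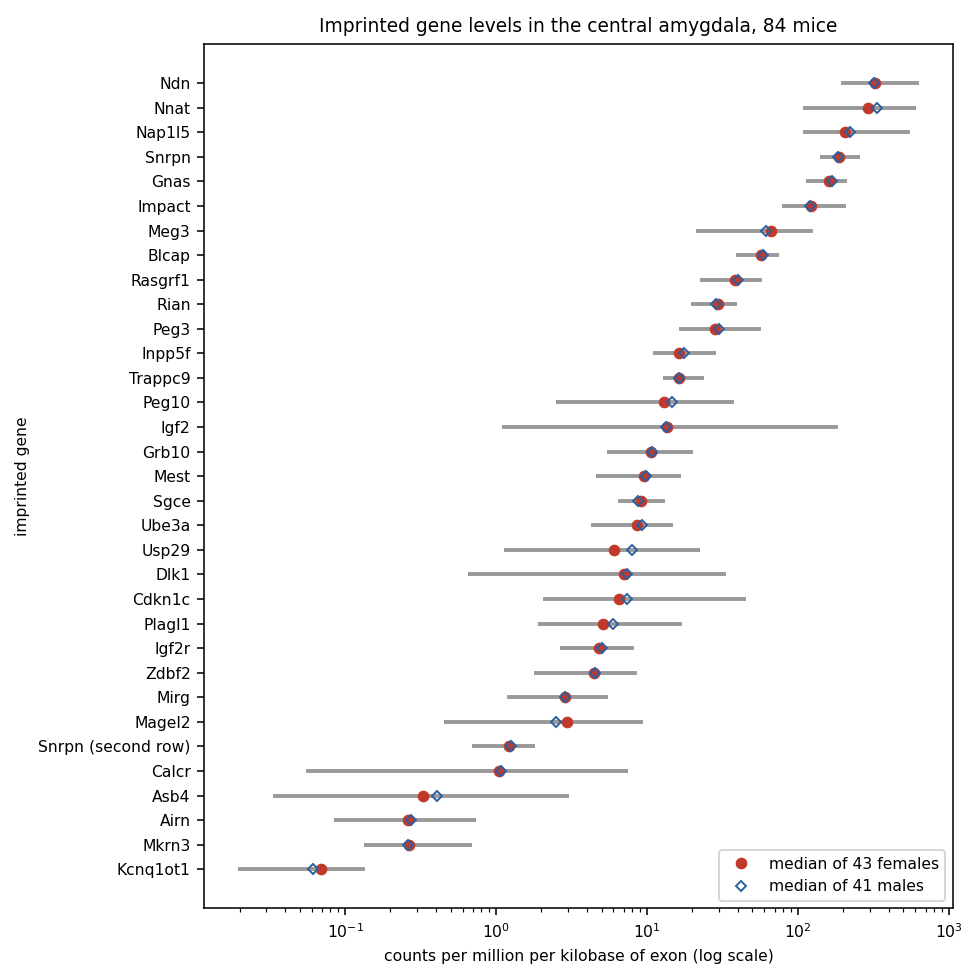
CPM per kilobase of exon (log axis) for the 33 tested rows in 84 mice, with grey lines from the lowest to the highest library and points for the median of each sex. Ndn and Nnat are the highest rows, at medians of 321 and 313, and Igf2, Dlk1, Calcr and Asb4 have the longest lines.

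Spread between animals differed widely among the members. The SD of log2 CPM over 84 animals was 1.42 for Calcr, 1.38 for Igf2, 1.20 for Asb4, 1.03 for Cdkn1c, 0.95 for Magel2 and 0.94 for Dlk1. These 6 rows were at or above the 90th percentile of SD among all tested genes, whose median was 0.32. The steadiest rows were Snrpn (0.17), Trappc9 (0.18), Gnas (0.18) and Sgce (0.20). The biological coefficient of variation was above edgeR's trend at that level in 20 of 33 rows, beside 23.9% of all tested genes, and Igf2, at 4.16 times the trend, was at the 99.7th percentile.

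Igf2 ran from 17.5 to 1060 CPM in females (median 77.4) and from 6.27 to 776 CPM in males (median 77.1). The female replicate 38 and the male replicate 33 were highest, and the sexes overlapped over nearly the whole range. Dlk1 ran from 3.70 to 190 CPM in females (median 39.9) and from 11.1 to 124 CPM in males (median 41.8). Its lowest library, female replicate 42, was also the lowest for Usp29 (2.93 CPM, next lowest 7.10), Peg10 (16.6 CPM, next lowest 30.4), Magel2 (2.10 CPM), Igf2r and Rasgrf1. Female replicate 33 was the highest for Magel2 (43.6 CPM), Calcr (29.1 CPM), Asb4 (12.0 CPM), Plagl1 and Zdbf2. Several of these genes were thus at their lowest or highest in the same animal.

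Pearson correlations of log2 CPM over the 84 animals were computed for all 528 pairs of rows, with p-values from 100000 permutations and Benjamini-Hochberg adjustment over the pairs. Of these, 305 pairs passed an adjusted p of 0.05, which was 57.8% of the pairs, 264 positive and 41 negative. The smallest absolute r among them was 0.24. As background, 35.2% of all 133163040 pairs of tested genes had an absolute r of that size, so many of the weaker calls were of a kind found throughout these libraries. At an absolute r of 0.7 or above there were 58 member pairs, 11.0%, beside 0.804% of all pairs. The median r was 0.24 among member pairs and -0.0022 among all pairs. Where none is given, adjusted p was 3.4e-05 for r between members over all 84 animals, which rests on 1e-05, the smallest p that these permutations can give. Animals were killed in 4 passes and libraries were sequenced at most 6 per lane, but the labels do not say which animal was in which. Values are therefore also given within 4 runs of samples, of 18, 18, 17 and 31 animals. A new run begins where the sample-sheet number in the sample titles falls back. Whether the runs match passes or lanes is not known.

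**Figure D2:**
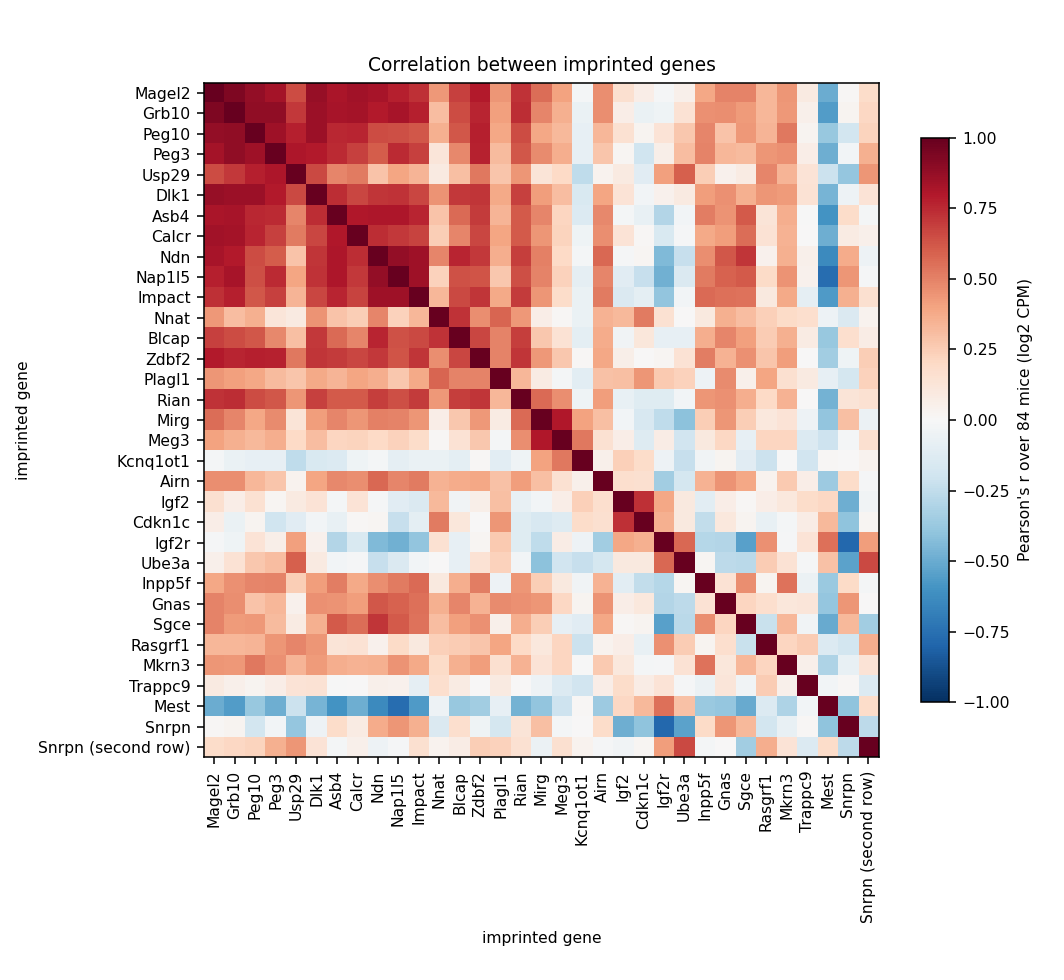
Pearson's r between the 33 tested rows over 84 mice (log2 CPM), from blue (-1) to red (1), ordered by hand. A red block joins Magel2, Grb10, Peg10, Peg3, Dlk1, Ndn and Nap1l5, while Igf2 with Cdkn1c and Meg3 with Mirg form separate pairs and Mest is blue against the block.

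The largest group joined genes of different chromosomes. Magel2 and Grb10 gave r = 0.94 (rho = 0.95, r = 0.93 without the 2 farthest animals, 0.88 to 0.94 within the runs). Magel2 is a MAGE-family regulator of protein recycling, known in the hypothalamus, and Grb10 in neurons is known to be expressed from the paternal copy. Grb10 also went with Peg3 (r = 0.89, rho = 0.88, 0.76 to 0.94 within runs), Peg10 (r = 0.88, rho = 0.88) and Asb4 (r = 0.83, rho = 0.87). Magel2 also went with Dlk1 (r = 0.87, rho = 0.85), Calcr (r = 0.84, rho = 0.87) and Zdbf2 (r = 0.79, rho = 0.81). Ndn went with Nap1l5 (r = 0.88, rho = 0.89, 0.77 to 0.91 within runs), Impact (r = 0.85), Blcap (r = 0.76) and Sgce (r = 0.72).

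Levels of this group followed markers of hypothalamic and medial amygdala neurons, scored as the mean standardised log2 CPM of the 11 tested markers of 16 listed. Hcrt, Agrp, Nr5a1, Hmx2 and Hmx3 did not pass the low-count filter, with median counts from 0 to 5. Of the markers in the score, Lhx6, Cartpt and Esr1 had the highest median counts (926, 669 and 340.5). Correlations with 12 such marker scores were computed for all 33 rows, 396 in all, and adjusted over them. Where none is given, adjusted p for a score was 6.1e-05. For values in residuals, within runs and for single genes outside the list, a p applies only where printed. The score gave r = 0.86 with Nap1l5 (rho = 0.87, 0.83 to 0.87 within runs), 0.82 with Magel2 (rho = 0.87) and 0.82 with Asb4 (rho = 0.82), each at an adjusted p of 6.1e-05. With the score of cortical and basolateral excitatory neurons, r was negative at the same adjusted p, at -0.71 for Nap1l5, -0.65 for Inpp5f and -0.64 for Peg3. With the CeA neuron score r was 0.70 for Peg10, 0.66 for Asb4 and 0.62 for Sgce. In residuals after the hypothalamic score, 36.7% of the pairs were called in place of 57.8%. The pair Magel2 and Grb10 kept r = 0.80 there, Peg3 and Grb10 0.77, Ndn and Nap1l5 0.60 and Magel2 and Ndn 0.48. 

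Members of one domain were not always correlated. Peg3 and Usp29, which share the promoter piece shown above, gave r = 0.81 (rho = 0.82, 0.66 to 0.92 within runs), although the counted Usp29 exons begin at chr7:6961160, far from that start. In the Prader-Willi and Angelman region, 5 of 10 pairs were called, with Snrpn entered by its main row only. Magel2 and Ndn gave r = 0.83, Ndn and Snrpn 0.37 (adjusted p = 0.0015), and Snrpn and Ube3a -0.53 (rho = -0.56, -0.73 to -0.47 within runs). The second Snrpn row had the opposite sign with Ube3a (r = 0.66, rho = 0.67). The main Snrpn row shares 27.3% of its exon bases with other genes on the same strand, and the second row 14.4%. For each row these genes include the other Snrpn row and Snurf. The part of reads from shared bases in these values was not tested, so the rows may not be separate measures. Ube3a is the gene of Angelman syndrome, and an antisense transcript from the Snrpn side is known to silence its paternal copy in neurons. The part of that transcript in these values was not tested. All 6 pairs of the Peg10 domain were called, from r = 0.44 for Peg10 and Sgce (adjusted p = 2.0e-04) to 0.80 for Asb4 and Calcr.

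Meg3, Rian and Mirg lie in a row on chromosome 12 and are known as products of 1 maternal transcription unit. Meg3 ran from 383 to 2266 CPM in females (median 1206) and from 551 to 2037 CPM in males (median 1108). Mirg ran from 8.63 to 40.4 CPM in females and 12.3 to 34.8 CPM in males, and Rian from 358 to 657 CPM and 343 to 685 CPM. Female replicate 2 was the lowest and female replicate 26 the highest in both Meg3 and Mirg, while Rian varied least. Meg3 and Mirg gave r = 0.80 (rho = 0.78, 0.77 without the 2 farthest animals, 0.57 to 0.82 within runs). Mirg and Rian gave r = 0.56 (rho = 0.54, 0.30 to 0.69 within runs) and Meg3 and Rian 0.47 (adjusted p = 6.3e-05, rho = 0.43, 0.12 to 0.62 within runs). The best partner of Rian was Grb10 (r = 0.74), in the neuronal group, and the paternally expressed Dlk1 gave r = 0.31 with Meg3 (adjusted p = 0.0095, -0.27 to 0.44 within runs). That last value no longer passed in residuals after sex and run (r = 0.16).

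Meg3 was also correlated with RNAs outside the list that stay in the nucleus. A score of 8 such RNAs (Malat1, Neat1, Miat, Snhg11, Pantr1, Rmst, Xist and Ftx) gave r = 0.79 with Meg3 (rho = 0.79, 0.59 to 0.87 within runs), 0.72 with Kcnq1ot1 (rho = 0.69) and 0.71 with Mirg (rho = 0.71), all at an adjusted p of 6.1e-05. The score holds Xist, which females express, and within females and males apart r was 0.84 and 0.77 for Meg3. Rian gave r = 0.25 (adjusted p = 0.064). In residuals after the score, Meg3 and Mirg gave r = 0.55, Meg3 and Kcnq1ot1 fell from 0.53 to -0.10, and Meg3 and Rian gave 0.45. RNA quality per library was not used here, and its part in these values was not tested.

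**Figure D3:**
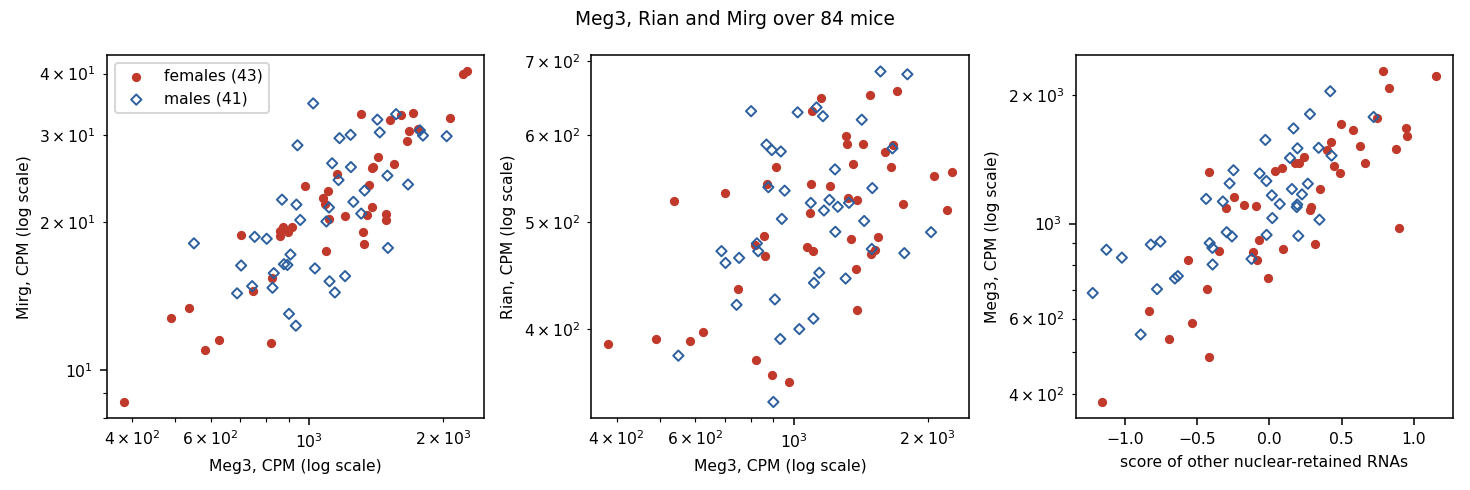
CPM of Mirg and of Rian against Meg3 (log axes), and Meg3 against the score of 8 other nuclear-retained RNAs (mean standardised log2 CPM), 1 point per mouse. Mirg rises with Meg3 (r = 0.80), Rian less so (r = 0.47), and Meg3 rises with the score (r = 0.79).

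Igf2 and Cdkn1c, from neighbouring domains of chromosome 7 and expressed from opposite parental copies, formed another group. They gave r = 0.73 (rho = 0.69, 0.69 without the 2 farthest animals, 0.46 to 0.88 within runs). Cdkn1c ran from 4.09 to 65.8 CPM in females (median 12.5) and from 3.93 to 86.8 CPM in males (median 14.3), with the top in each sex in the same animals as for Igf2. The choroid plexus score gave r = 0.84 with Cdkn1c (rho = 0.80, 0.81 to 0.92 within runs) and 0.78 with Igf2 (rho = 0.80, 0.68 to 0.88 within runs). The ependyma score gave 0.85 and 0.72. Of all tested genes, 336 had r of 0.7 or above with Cdkn1c and 243 with Igf2, among them for Igf2 2810433D01Rik (0.91) and Angptl2 (0.91). In residuals after the choroid plexus score, Igf2 and Cdkn1c gave r = 0.21 and were not called (adjusted p = 0.088). The leptomeningeal score gave r = 0.30 with Igf2 (adjusted p = 0.017).

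**Figure D4:**
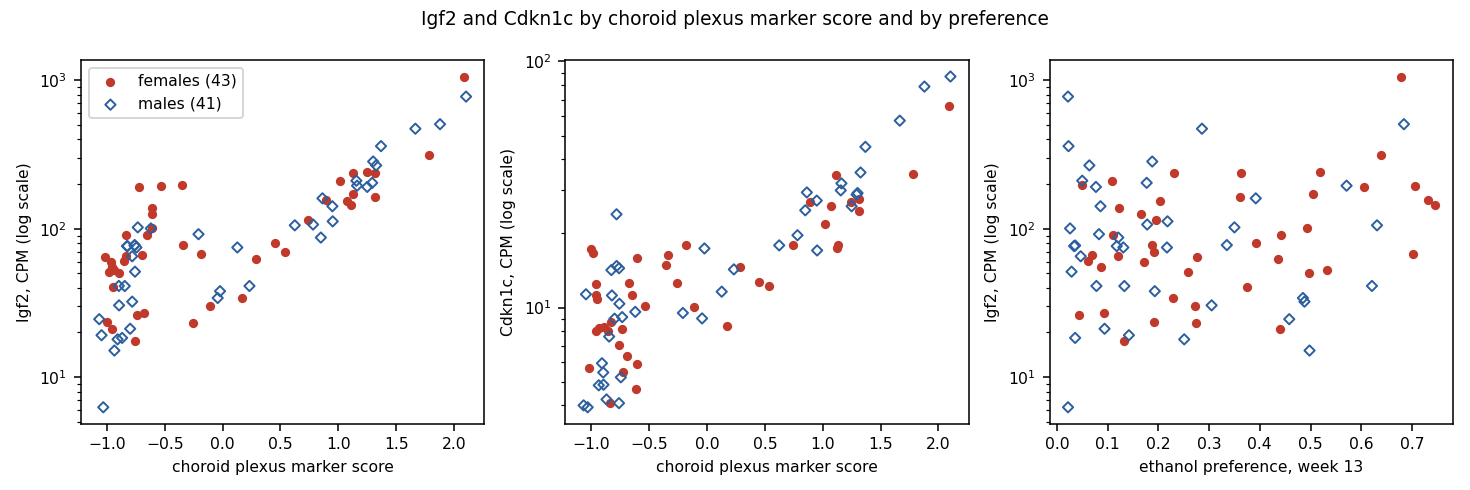
CPM of Igf2 and Cdkn1c (log axes) against the choroid plexus score (mean standardised log2 CPM of 14 markers), and Igf2 against week 13 preference, 1 point per mouse. Both genes rise with the score (r = 0.78 and 0.84), and Igf2 is highest in female replicate 38, at 1060 CPM.

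The growth network described for embryonic tissues, in which Plagl1 acts on Igf2, H19, Cdkn1c, Dlk1, Mest and others, was not 1 group in these animals. Of its 28 tested pairs 17 were called, with a median r of 0.24 and a range from -0.56 to 0.89. Plagl1 gave r = 0.30 with Igf2 (adjusted p = 0.013), and that value was -0.05 in residuals after the choroid plexus score. Igf2 and Dlk1 gave r = 0.13 (adjusted p = 0.31). Mest, a hydrolase-like protein of the endoplasmic reticulum, was negative in 20 of its 23 called pairs, with r = -0.76 against Nap1l5. Its row shares 22.9% of exon bases with Copg2 on the opposite strand.

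Partners that are nested or antisense differed in sign. Nnat lies within an intron of Blcap, and the 2 genes gave r = 0.72 (rho = 0.66, 0.53 to 0.79 within runs). Airn, whose transcription silences the paternal Igf2r in many tissues, gave r = -0.34 with Igf2r (adjusted p = 0.0030, -0.57 to -0.19 within runs), and in females alone the pair was not called (r = -0.21). Cdkn1c and the silencing RNA of its domain, Kcnq1ot1, lie apart on the minus strand and are neither nested nor antisense. They gave r = 0.18 (adjusted p = 0.15). The most negative pair was Igf2r with Snrpn (r = -0.79, -0.86 to -0.66 within runs). That pair is named here after its value was seen. Trappc9 had 1 called pair, with Rasgrf1 (r = 0.25, adjusted p = 0.036).

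Among remaining best partners, Plagl1 went with Nnat (r = 0.58), Airn with Ndn (0.58), Mest with Igf2r (0.55), Rasgrf1 with Usp29 (0.49), Snrpn with Nap1l5 (0.44, adjusted p = 6.3e-05), Gnas with Ndn (0.62), Inpp5f with Impact (0.57), Mkrn3 with Inpp5f (0.55), Ube3a with the second Snrpn row (0.66) and Igf2r with Ube3a (0.57). Among all tested genes, members included, those nearest to Peg3 were Zfp275 (r = 0.90), Amotl1 (0.90) and Grb10 (0.89). For Ndn they were Resp18 (0.93), Dleu7 (0.92) and A730017C20Rik (0.91). Those of Dlk1 were Magel2 (0.87), its imprinted neighbour Rtl1 (0.86) and Grb10 (0.86), those of Meg3 AI480526, Safb2 and Mir5125 (each 0.85), and those of Nnat Npy2r, Vit and Cpne2 (0.77). Of the other marker scores, that of striatal medium spiny neurons gave r = -0.65 with Plagl1 and that of oligodendrocytes 0.58 with Inpp5f.

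The relation to drinking was tested with edgeR's quasi-likelihood test over all 16320 genes, as the log2 change per 0.5 of preference. No member passed a Benjamini-Hochberg adjusted p of 0.05 for mean, week 1 or week 13 preference, in all animals, females or males. In the table as a whole, calls were 0%, 0% and 0% of genes for mean preference in all animals, females and males. They were 0.0306%, 0% and 0.0368% for week 1, and 0%, 0.0368% and 0% for week 13. Limma-voom called no member either, and DESeq2 called 1, Cdkn1c for week 13 in females, in a fit that called 1.26% of all genes. At an unadjusted p below 0.05 there were 1 of 33 rows for mean preference in all animals (all genes 3.94%), 2 in females (6.95%) and 0 in males (1.65%). For week 1 there were 0, 0 and 0 (3.25%, 2.26% and 5.17%). For week 13 there were 4 in all animals (6%), 2 in females (8.67%) and 3 in males (3.74%). With 33 rows, 1 row is 3.03%, and the 4 and 3 rows at week 13 are 12.1% and 9.09%.

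Igf2 and Cdkn1c had the largest slopes, in females. In the 22 females at or below the median week 13 preference of 0.273, Igf2 ran from 17.5 to 238.5 CPM (median 66.3), and in the 21 above it from 21.1 to 1060 CPM (median 102). Cdkn1c ran from 4.09 to 25.9 CPM (median 11.7) and from 5.47 to 65.8 CPM (median 14.6). Both groups overlapped over most of the range, with the top values among the high-preference females. In the 21 males at or below the median week 13 preference of 0.142, Igf2 ran from 6.27 to 776 CPM (median 76.4). In the 20 above it, Igf2 ran from 15.1 to 506 CPM (median 89.8). Cdkn1c ran from 3.93 to 86.8 CPM (median 11.6) and from 4.00 to 79.0 CPM (median 15.9) in the same groups. The top values in males were thus in the low-preference group, and no member's slope in males at week 13 exceeded 0.21. The week 13 slope in females was 1.03 ± 0.25 (SE) for Cdkn1c (edgeR adjusted p = 0.054) and 1.34 ± 0.36 for Igf2 (edgeR adjusted p = 0.076), neither past the threshold. For mean preference in females the slopes were 1.05 ± 0.33 and 1.31 ± 0.49 (edgeR adjusted p = 0.48 and 0.49). In all animals at week 13 they were 0.63 ± 0.25 and 0.75 ± 0.34 (edgeR adjusted p = 0.66 and 0.74).

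Choroid plexus markers were tested in the same females and none passed the edgeR adjusted threshold. All 14 had positive week 13 slopes, 13 of them with an unadjusted p below 0.05 (all genes 8.67%), with a median slope of 2.84. Of 9 ependyma markers 9 were positive (median 1.41) and of 11 striatal medium spiny neuron markers 11 were negative (median -0.95), all with an unadjusted p below 0.05 and none past the adjusted threshold. Their part in the slopes of Igf2 and Cdkn1c was not tested. The score ran from -1.002 to 1.12 (median -0.64) in the lower females and from -1.02 to 2.09 (median -0.18) in the upper ones. With the score as a covariate, the week 13 slopes in females were 0.31 ± 0.20 for Cdkn1c and 0.46 ± 0.30 for Igf2. Without female replicate 38 they were 0.77 ± 0.25 and 0.75 ± 0.35, and without the 5 libraries of highest score 0.66 ± 0.26 and 0.59 ± 0.36. Without female replicate 38, the mean preference slopes in females were 0.69 ± 0.32 and 0.43 ± 0.46, and in all animals at week 13 they were 0.47 ± 0.25 and 0.37 ± 0.32.

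With ethanol intake in g per kg in place of preference, both genes passed in females, with week 13 slopes per 10 g per kg of 1.06 ± 0.20 for Cdkn1c (edgeR adjusted p = 0.00070) and 1.34 ± 0.27 for Igf2 (edgeR adjusted p = 0.0015). That fit called 3.5% of all genes, and 1.26% for mean intake, where both genes also passed (edgeR adjusted p = 0.037 and 0.045). Neither passed at week 13 without female replicate 38 (edgeR adjusted p = 0.10 and 0.33), without the 5 libraries of highest score (edgeR adjusted p = 0.80 and 0.85) or with the choroid plexus score as a covariate (edgeR adjusted p = 0.98 for both). For mean intake without female replicate 38, edgeR adjusted p was 0.90 and 0.96. In all animals neither gene passed for week 13 intake (edgeR adjusted p = 0.11 for both) or for mean intake (edgeR adjusted p = 0.26 and 0.32).

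In males at week 13, the members of smallest p had negative slopes, -0.48 ± 0.19 for Nap1l5, -0.21 ± 0.09 for Rian and -0.51 ± 0.24 for Airn (edgeR adjusted p = 0.98 for each). Nap1l5 ran from 309 to 1040 CPM (median 452) in the 21 males at or below the median preference and from 230 to 680 CPM (median 417) in the 20 above it, and the groups overlapped. Markers of hypothalamic and medial amygdala neurons also had negative slopes in these males, 11 of 11 tested, 4 with an unadjusted p below 0.05 (all genes 3.74%) and a median of -0.75. Striatal medium spiny neuron markers were positive in 11 of 11, 2 with an unadjusted p below 0.05, with a median of 1.07. With the score of the hypothalamic and medial amygdala markers as a covariate, the slopes were -0.22 ± 0.10 for Nap1l5, -0.15 ± 0.08 for Rian and -0.30 ± 0.21 for Airn. In all animals at week 13, Mest had a slope of 0.21 ± 0.09 and Nap1l5 -0.27 ± 0.13 (edgeR adjusted p = 0.74 and 0.78).

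**Figure D5:**
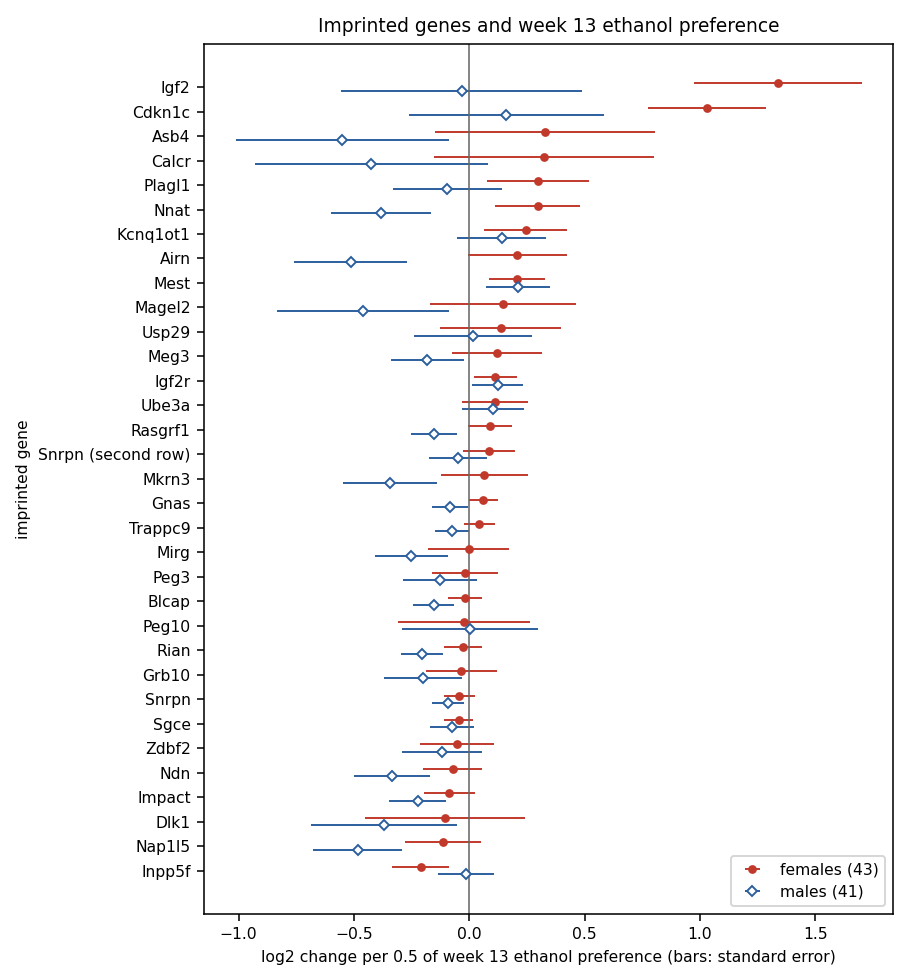
Log2 change per 0.5 of week 13 ethanol preference for the 33 tested rows, with standard errors, in 43 females and 41 males. Igf2 (1.34) and Cdkn1c (1.03) have the largest slopes in females, and no row passed the adjusted threshold in either sex.

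Week 1 preference, the measure closest to first exposure, gave its smallest p-values in all animals for Mest (0.20 ± 0.12), Ndn (-0.20 ± 0.12) and Dlk1 (-0.40 ± 0.27). In females they were for Trappc9 (0.16 ± 0.08), Rian (-0.15 ± 0.10) and Mest (0.23 ± 0.16), and in males for the second Snrpn row (0.25 ± 0.14), Inpp5f (0.22 ± 0.12) and Mirg (-0.29 ± 0.17). Next after Cdkn1c for mean preference in all animals (0.65 ± 0.32) were Igf2 (0.69 ± 0.43) and Nap1l5 (-0.21 ± 0.16). Without female replicate 38 the slopes of Cdkn1c and Igf2 there were 0.44 ± 0.32 and 0.16 ± 0.41. In females Kcnq1ot1 came next after Cdkn1c and Igf2 (0.38 ± 0.24). In males Inpp5f (0.19 ± 0.15), Mirg (-0.25 ± 0.20) and Snrpn (-0.10 ± 0.09) came first. For week 13 in females Inpp5f came next after them (-0.21 ± 0.12). None of these passed the edgeR adjusted threshold.

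The slope for mean preference was also compared between the sexes. No member passed, and 0 of 33 had an unadjusted p below 0.05 (all genes 0% adjusted and 3.24% unadjusted by edgeR, with 1 gene called by DESeq2 and 0 by limma-voom). The largest difference, females minus males, was 1.46 ± 0.86 for Igf2 (edgeR adjusted p = 1.00), followed in order of p by Inpp5f (-0.37 ± 0.22) and Meg3 (0.47 ± 0.33). The difference between the sexes at week 13 was not tested. For sex itself 0.0919% of genes were called and no member. The second Snrpn row was the single one of 33 with an unadjusted p below 0.05 (all genes 3.81%), at -0.14 ± 0.07 log2 in females relative to males (edgeR adjusted p = 0.99). Cdkn1c (-0.37 ± 0.23) and Kcnq1ot1 (0.17 ± 0.11) followed.

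Related genes outside the list were counted in the same fits. For week 13 preference in females, 0 of 41 other tested imprinted genes passed by edgeR, and 6 had an unadjusted p below 0.05, led by Adam23 (-0.30), beside 8.67% of all genes in that fit. Of 17 tested genes of the insulin-like growth factor axis, 1 had an unadjusted p below 0.05, the binding protein Igfbp2, at 1.24 (edgeR adjusted p = 0.055). Of 18 tested factors that maintain imprints, 0 did, with Uhrf1 first at 0.42. The growth network and the maternal noncoding cluster consist of members of the list, so their values repeat slopes given above. In the growth network 0 of 8 tested members passed and 2 had an unadjusted p below 0.05, Igf2 and Cdkn1c again. Its median slope was 0.16, beside -0.0013 for all genes. In the maternal noncoding cluster the median was -0.0018 and no member had an unadjusted p below 0.05. In males 0 of 41, 0 of 17 and 0 of 18 passed, and the median slope of the maternal noncoding cluster was -0.21.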

How the data were processed

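Raw read counts per gene were deposited by the authors as 1 table of the whole series. The submitters' processing notes name FastQC, STAR, Subread, featureCounts 1.6.0 and the GRCm38 build. The strand setting of the counting is not given in the sources used here. A further 8 columns (3 of undetermined reads, 5 empty) were not used. The imprinted genes and all lists were chosen with earlier results of these data known.

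Counts were filtered (filterByExpr, minimum count 10, minimum total 15) and scaled by TMM. Slopes came from edgeR 4.0.16 (R 4.3.3), with sex as a covariate in all animals, and alternatives from limma 3.58.1 and DESeq2 1.42.0. Correlations used log2 CPM with a prior count of 2. The fit was tested on counts simulated with the same dispersion for every gene, and the correlations on simulated normal values. Neither simulation held outlying libraries, so they do not cover genes that vary as Igf2 and Cdkn1c do. The members named per comparison were the 3 of smallest p and all below 0.05. Every tested member has its level and its best partner. The p-values judge a slope, difference or r against the variation between animals, which were treated as independent although some may share a family.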

Additional observations from a re-analysis of the deposited data

How the results depend on the processing

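No paired analysis was possible because the labels give no replicate numbers, and those used here follow accession order. Scaling, filters, other tools, a term for run, other tissue scores, ranks, intake and single libraries were varied, some of them (leaving out female replicate 38 or 42 or the 5 highest choroid plexus scores, the hypothalamic score and the intake fits with a second change) chosen after seeing the data. Members called for mean preference in females went from 0 to 2 with ethanol intake. For week 13 in females they went from 0 to 1 with DESeq2 (which called 1.26% of all genes, edgeR 0.0368%) and 2 with ethanol intake, and the other drinking and sex counts stayed at 0. Called pairs ranged from 44.5% of 528 in females to 61.0% in residuals after the nuclear-retained score (57.8% as reported), except for 36.7% after the hypothalamic score. Of 512 slope values 3 changed sign, all for Igf2 and mean preference in all animals: -0.0944 with the choroid plexus score, -0.0182 without the 5 highest scores and -0.0505 for intake with the score. Of 364 pair values 6 did: Meg3 with Kcnq1ot1 after the nuclear-retained score (-0.0970), Igf2 with Plagl1 after the first principal component of all genes (-0.0881) and the choroid plexus score (-0.0550), Cdkn1c with Plagl1 after that component (-0.0261), and Igf2 with Mest after both (-0.137 and -0.0972). Another 14 pair values lost and 2 gained their call. The cause was not tested. Low counts limit H19, Mkrn3, Airn and Asb4.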
